A study of Homo sapiens with 4 samples.

Results

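Transcripts whose normal termination codon (NTC) is the opal codon UGA followed by C, written UGAC as a 4 nt stop codon, were examined for stop codon readthrough (SCR). They were chosen from the deposited annotation alone, as transcripts with an opal stop, C at +4, at least 1 in-frame stop codon in the 3′UTR (3′TC) and at most 200 nt from the NTC to the end of the first of these. The rule was met by 815 of 9271 transcripts, or 8.79%, from 813 genes. UGAC ended 1002 of the 4698 transcripts with a UGA stop (21.3%), of which 68 had no in-frame 3′TC and 119 had the first of them beyond 200 nt. The region up to the first 3′TC was 18 to 198 nt long in the 815 transcripts, with a median of 69 nt. At the edge of the rule, 8 transcripts lay in the last 6 nt up to the limit and were taken, and 7 in the next 6 nt and were not.

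The data are ribosome profiling libraries of HEK293T cells, an established line from human embryonic kidney that carries the large T antigen of SV40. Untreated cells and cells given 500 µg/mL (0.5 mg/mL) of the aminoglycoside G418 for 24 hr were profiled in 2 replicates each, named A and B, whose values are given in that order, and no other agent or genotype differs between the groups. All 4 libraries come from this line, and the study describes its replicates as biological. Of the kidney line's fixed markers, VIM had a CDS density of 533 to 658 RPKM, NEFM 30.5 to 37.2, KRT18 26.7 to 29.4 and KRT8 1.45 to 2.13, while PAX2 was listed in the G418 tables alone at 1.04 and 1.36, and none of PTPRC, CD3E, ALB or HBB was listed in any table. Reads on mRNAs ranged from 2440204 in untreated replicate B to 6082600 in untreated replicate A.

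Termination is carried out by eRF1, which reads the stop codon in the A site of the ribosome together with the base that follows it. When a near-cognate tRNA is accepted in place of eRF1, elongation goes on into the 3′UTR in the reading frame of the coding sequence (CDS) until the next in-frame stop codon. UGA is known as the leakiest of the stop codons and C as the most permissive base at +4, and UGA followed by CUA is the motif of several mammalian genes with natural readthrough, among them LDHB and MDH1. G418 binds the decoding center of the ribosome and raises the acceptance of near-cognate tRNAs.

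The sequences around the NTC are given because the results turn on the bases after UGAC. Each is 30 bases of mRNA, 5′ to 3′, from 15 bases before the stop codon to 12 after it, with positions counted from +1 at the first base of UGA. UGAC is in capitals, and so are +5 and +6 where they complete CUA. The first 9 carry CUA at +4 to +6, and the other 6 have U, C, G or A at +5. Sequences and positions are from GENCODE version 44 (GRCh38), where 794 of the 815 transcripts were matched by identifier, CDS length, 4 nt stop codon and first 3′TC.
LDHB: gaccuaaaagaccugUGACUAgugagcucu
MDH1: uuucuuuccucugccUGACUAgacaaugau
LMAN1: gccaaaaaauucuuuUGACUAccauuuucc
GSKIP: agagauggacagucaUGACUAcacuuuuuc
HPS6: ccaccucgggaccuaUGACUAcccuucagg
MED18: cccaagaggcucaugUGACUAagaggaucu
PAN2: ucagugcuggcgcucUGACUAcccuuccca
TFAP4: gacggggagcuucccUGACUAcccccccag
AQP4: guauugucuucaguaUGACUAgaagaucgc
SINHCAF: uccacucaggaguggUGACugagguuuuua
EDEM3: gagaaggaugagcuaUGACuugcuaaacaa
XRCC6: aagcacuuccaggacUGACcagaggccgcg
PPDPF: gcugggcccccguccUGACcugagcgguua
FKBP5: ccugagggccacguaUGACgccacgccaag
DHX36: gauggauauuacagcUGACagcuuuucagg

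Each of these windows spans the end of the CDS and the start of the 3′UTR within an exon. On the minus strand, LDHB lies at chr12:21635530-21635559, LMAN1 at chr18:59331081-59331110, PAN2 at chr12:56317597-56317626, TFAP4 at chr16:4258043-4258072 and AQP4 at chr18:26856199-26856228. SINHCAF, at chr12:31282700-31282729, EDEM3, at chr1:184694051-184694080, FKBP5, at chr6:35575823-35575852, and DHX36, at chr3:154276159-154276188, are on the same strand. The plus strand carries MDH1 at chr2:63606970-63606999, GSKIP at chr14:96385667-96385696, HPS6 at chr10:102067785-102067814, MED18 at chr1:28334953-28334982, XRCC6 at chr22:41663798-41663827 and PPDPF at chr20:63521862-63521891. Downstream, the first 3′TC with its next base was UAGA in LDHB, UGAC again in MDH1, UAGU in GSKIP and PPDPF, and UAAA in AQP4 and FKBP5.

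Readthrough was expressed as RRTS, the ribosome readthrough score, computed as the density of ribosome protected fragments between the NTC and the end of the first in-frame 3′TC, without the first 6 nt, divided by the density on the CDS. An RRTS of 1 means that the extension held ribosomes at the density of the CDS. For a group of transcripts the reads in these regions were summed and divided by the reads that each CDS density would place there, which gives an aggregate RRTS per library. The score takes reads before the 3′TC to come from SCR. The paper found the CDS frame lost in 3′UTRs of untreated cells and kept with G418. Reading frame was not examined here, so other sources of untreated reads were not tested. Unless stated otherwise, transcripts had at least 128 mRNA reads in the pooled replicates of both conditions, as 547 of the 815 did. Regions of these 547 held 1247 and 491 reads in the untreated replicates and 7157 and 5658 in the treated ones. The negative binomial regressions across transcripts instead applied the minimum within the condition tested, which 547 passed untreated and 624 with G418. Their G418 tests therefore hold more transcripts than the aggregates. The median UGAC transcript was expected to hold 15.2 reads there in pooled untreated cells if ribosomes did not terminate at all, so single untreated values rest on few reads.

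RRTS of UGAC transcripts as a group stood at about 6% of CDS density without drug and at about 37% of it with G418. Their aggregate RRTS was 0.0630 and 0.0596 in the untreated libraries, a mean of 0.0613 ± 0.00242 (SD, n = 2). In the treated libraries it was 0.381 and 0.359, a mean of 0.370 ± 0.0152 (SD, n = 2), and no G418 library overlapped an untreated one. G418 raised it 6.04-fold in replicate A and 6.02-fold in replicate B (exact two-sided permutation test over libraries, p = 0.333, the smallest p that 2 against 2 allow). No read was found before the 3′TC for 38.6% of the transcripts in untreated cells and for 7.13% in G418-treated cells, where SCR was not detectable at this depth. With replicates pooled, the median transcript had an RRTS of 0.0376 untreated and 0.432 with G418.

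The other opal contexts, taken under the same length rule, had lower aggregate RRTS. Untreated aggregate RRTS was 0.0263 and 0.0263 for UGAA (813 transcripts), 0.0186 and 0.0182 for UGAG (1001 transcripts) and 0.0305 and 0.0233 for UGAU (386 transcripts). With G418 it was 0.250 and 0.232, 0.198 and 0.197, and 0.276 and 0.254 in the same order. In each of the 4 libraries the UGAC value was the highest of the 4 contexts. A negative binomial regression across transcripts, each condition with its own minimum of mRNA reads (547 UGAC transcripts untreated and 624 with G418), gave UGAC over UGAA a log2 ratio of 1.35 ± 0.28 (SE) in untreated cells (adjusted p = 6.95e-06) and 0.53 ± 0.08 with G418 (adjusted p = 3.99e-10). Over UGAG the ratio was 1.97 ± 0.28 untreated (adjusted p = 1.78e-11) and 0.89 ± 0.08 with G418 (adjusted p = 3.65e-28). Over UGAU, the context with the other pyrimidine at +4, it was 1.23 ± 0.35 untreated (adjusted p = 0.00084) and 0.36 ± 0.10 with G418 (adjusted p = 0.000473).

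**Figure D1:**
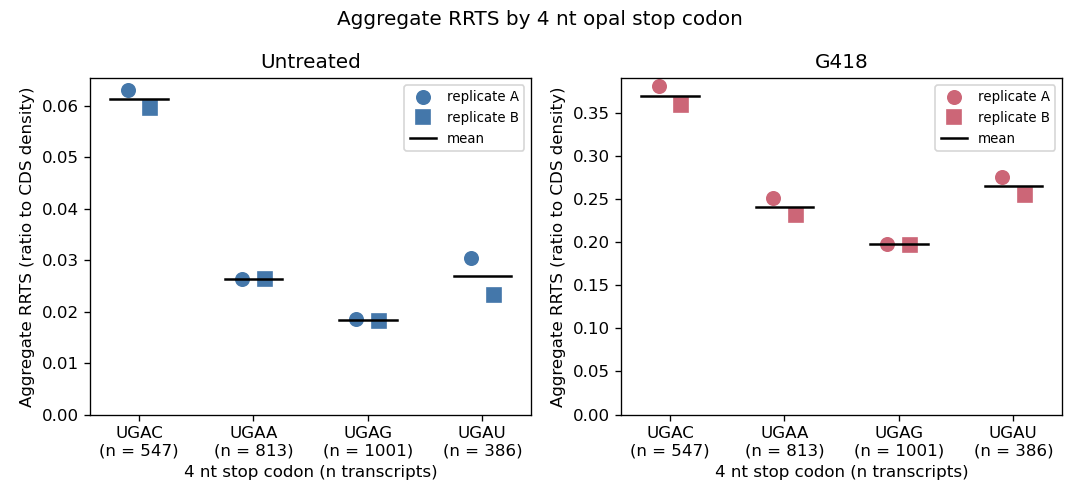
Aggregate RRTS (y axis, ratio to CDS density, from 0) of transcripts with each 4 nt opal stop codon (x axis, with the number of transcripts) in untreated cells (left) and G418-treated cells (right). Circles are replicate A, squares replicate B and bars the mean of both; UGAC lies above the other contexts in each library, at a mean of 0.0613 untreated and 0.370 with G418.

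The G418-treated to untreated ratio was smaller for UGAC than for the other contexts. This ratio is relative to the untreated level, which was highest for UGAC, as was the level with G418. It was 9.52-fold in replicate A and 8.82-fold in replicate B for UGAA, 10.6-fold and 10.8-fold for UGAG, and 9.05-fold and 10.9-fold for UGAU, against 6.04-fold and 6.02-fold for UGAC. The difference itself was tested with a binomial regression of the G418 reads among all reads of a transcript, over transcripts with any read. The fitted UGAC ratio was lower by a log2 difference of -0.59 ± 0.11 (SE) than that of UGAA (adjusted p = 2.3e-07), -0.83 ± 0.10 than that of UGAG (adjusted p = 1.23e-14) and -0.82 ± 0.15 than that of UGAU (adjusted p = 3.63e-08). These p-values treat transcripts as the units, over reads pooled from the 2 replicates of a condition. This test was added after the data were seen.

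Within UGAC transcripts, the base right after the 4 nt stop codon separated RRTS in untreated cells. With U at +5 (122 transcripts) aggregate RRTS was 0.137 and 0.122 in untreated cells, and with C at +5 (212 transcripts) it was 0.0340 and 0.0377. The U group lay above the C group in each library. Transcripts with A (139 transcripts) had 0.0467 and 0.0415, and those with G (59 transcripts) had 0.0901 and 0.0852. Against all other UGAC transcripts, those with C at +5 had lower RRTS, at a log2 ratio of -1.45 ± 0.23 (SE, negative binomial regression, adjusted p = 2.54e-07). Those with U at +5 had higher RRTS, at 1.30 ± 0.30 (adjusted p = 0.000889). A, at 0.22 ± 0.27 (adjusted p = 0.849), and G, at -0.19 ± 0.39 (adjusted p = 0.885), did not pass the threshold of 0.05. For A and G the regression and the aggregate differ in sign in both conditions, A lying below the whole set in the aggregate and G above it, and the aggregate gives most weight to transcripts with high CDS density.

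G418 brought the +5 groups closer together as a ratio, but not in RRTS units. Library values ran from 0.0340 with C to 0.137 with U in untreated cells, and over a wider range with G418. Aggregate RRTS with G418 was 0.532 and 0.478 with U, 0.451 and 0.384 with G, 0.350 and 0.348 with C, and 0.300 and 0.274 with A. No nucleotide at +5 passed the threshold in the negative binomial regression on G418 reads. There U had a log2 ratio of 0.15 ± 0.11 (140 transcripts, adjusted p = 0.594) and C of -0.15 ± 0.09 (241 transcripts, adjusted p = 0.5001). In the quasi-Poisson fit U passed at 0.58 (adjusted p = 6.21e-07), and A passed with the opposite sign, at -0.44 (adjusted p = 0.000827). G418 thus raised aggregate RRTS 3.88-fold and 3.92-fold in replicates A and B with U at +5, and 10.3-fold and 9.23-fold with C. Tested directly by the binomial regression, the G418 ratio was higher with C at +5 than with the other bases by a log2 difference of 1.07 ± 0.17 (SE, adjusted p = 8.93e-11). With U it was lower by -1.16 ± 0.16 (adjusted p = 7.36e-12), while A (0.07 ± 0.18) and G (-0.13 ± 0.25) did not differ from the rest beyond their error (adjusted p = 0.684 for both). Over replicate A or B alone the 2 differences that passed kept their sign and their adjusted p stayed at or below 0.00127, and over genes with a single annotated stop codon at or below 4.0e-06.

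**Figure D2:**
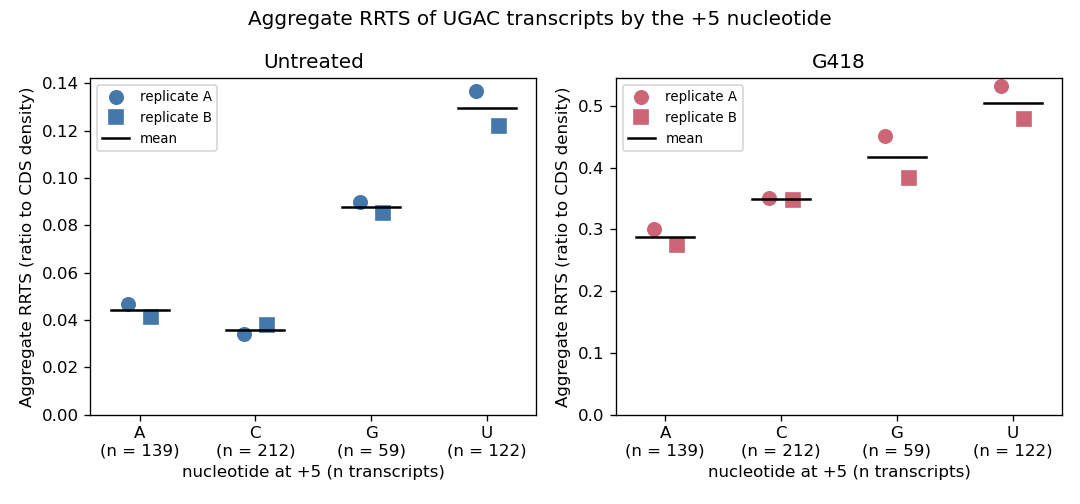
Aggregate RRTS (y axis, ratio to CDS density, from 0) of UGAC transcripts with A, C, G or U at +5 (x axis, with the number of transcripts), untreated on the left and G418-treated on the right. Circles are replicate A, squares replicate B and bars the mean of both; untreated values run from 0.0340 with C to 0.137 with U, and G418 values from 0.274 with A to 0.532 with U.

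Of the other positions from 6 bases before the stop codon to +12, a single nucleotide passed over 114 tests in both conditions. G at +6 had a log2 ratio of 0.95 ± 0.24 (SE, negative binomial regression, adjusted p = 0.00313, 135 transcripts) in untreated cells and 0.06 ± 0.10 with G418 (adjusted p = 0.885, 158 transcripts). The call was lost with a Mann-Whitney U test (adjusted p = 0.122) and without replicate A (adjusted p = 0.741), and the aggregate values with G (0.0696 and 0.0561 in untreated cells) and without G (0.0603 and 0.0608) overlapped. With G418 the lowest adjusted p was 0.0530, for A at 4 bases before the stop codon, with a log2 ratio of 0.37 ± 0.12.

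**Figure D3:**
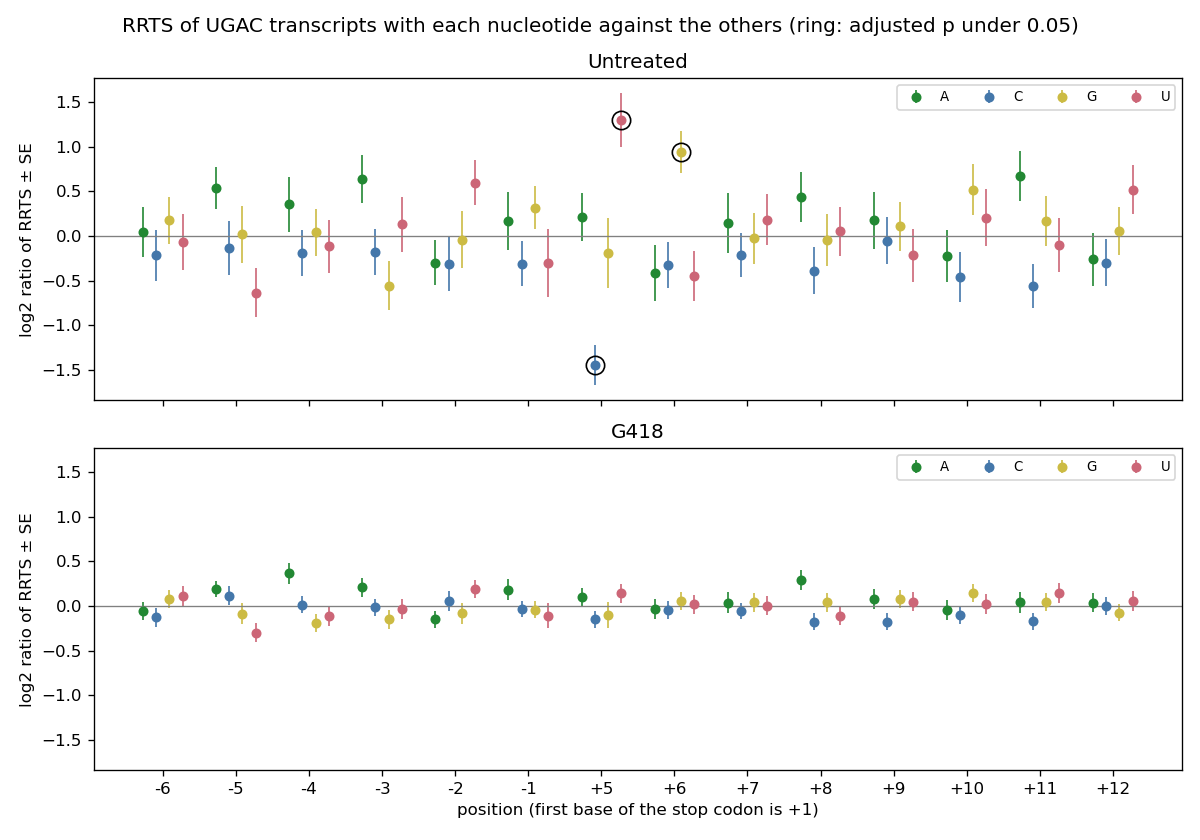
Log2 ratio of RRTS (y axis, with SE) of UGAC transcripts with each nucleotide against those with any other at the same position (x axis, in bases from the first base of the stop codon), for untreated cells (top) and G418-treated cells (bottom). Rings mark adjusted p-values under 0.05, which are C and U at +5 and G at +6 in untreated cells and none with G418, where values lie between -0.30 and 0.37.

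CUA at +4 to +6 was found in 19 of the matched UGAC transcripts, of which 11 had enough mRNA reads in both conditions. Their aggregate RRTS was 0.244 and 0.251 in untreated cells and 0.602 and 0.523 with G418, against 0.0555 and 0.0528, and 0.375 and 0.354, for the 521 without it. LDHB and MDH1 gave 196 of the 250 untreated reads of the 11, and without both genes the aggregate was 0.231 and 0.177 untreated and 0.762 and 0.674 with G418. The negative binomial regression did not pass for CUA in untreated cells (11 transcripts, log2 ratio 1.10 ± 0.80, adjusted p = 0.542). With G418, where 16 CUA transcripts had enough reads in that condition, it did not pass either (0.17 ± 0.29, adjusted p = 0.885). A quasi-Poisson fit, which gives deep transcripts more weight, did pass, at 2.17 untreated (adjusted p = 1.6e-06) and 0.61 with G418 (adjusted p = 0.0283). Among U groups at +5, A at +6 had the highest untreated aggregate, followed by G with 0.137 and 0.102 in replicates A and B (45 transcripts), U with 0.105 and 0.101 (35 transcripts) and C with 0.0923 and 0.0880 (31 transcripts). With G418 the C, G and U groups had 0.522 and 0.477, 0.479 and 0.411, and 0.564 and 0.540.

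RRTS and its change with G418 varied among the CUA transcripts. LDHB, the B subunit of lactate dehydrogenase, held 110 and 37 reads before its 3′TC in untreated cells and 136 and 82 with G418, with RRTS of 0.294, 0.277, 0.505 and 0.362. It had the most reads of any UGAC transcript in untreated cells, and its rise with G418 was small at a fitted log2 fold change of 0.60 ± 0.17 (SE, edgeR adjusted p = 0.0011), which was lost with DESeq2 (adjusted p = 0.146) and without G418 replicate A (edgeR adjusted p = 0.125). MDH1, the cytosolic malate dehydrogenase, held 29, 20, 100 and 91 reads, with RRTS of 0.156, 0.279, 0.604 and 0.631. Its fitted log2 fold change was 1.67 ± 0.23 (edgeR adjusted p = 8.69e-12), and its treated and untreated values did not overlap. GENCODE version 44 annotates CDS of another transcript over 18 nt of the LDHB region and 54 nt of the MDH1 region, which in both is the whole stretch between the NTC and the first 3′TC.

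LMAN1, a cargo receptor between the endoplasmic reticulum and the Golgi, had RRTS of 0.252 and 0.220 untreated and 0.620 and 0.609 with G418 in replicates A and B, from 15, 5, 36 and 29 reads. GSKIP, a small protein that binds GSK3B and protein kinase A, had 0.262 and 0.168 untreated and 1.17 and 0.956 with G418, from 15, 4, 53 and 38 reads. In HPS6, a subunit of the BLOC-2 complex of lysosome-related organelles, the values were 0.525, 0.337, 1.38 and 1.07 from 6, 2, 15 and 10 reads. All 3 rose with G418 in the edgeR fit, with log2 fold changes of 1.33 ± 0.38 for LMAN1, 2.18 ± 0.35 for GSKIP and 1.40 ± 0.63 for HPS6 (edgeR adjusted p = 0.000891, 2.18e-09 and 0.0331), and LMAN1 and HPS6 lost the call with DESeq2 (adjusted p = 0.0700 and 0.184).
MED18, a subunit of Mediator, held 3 untreated and 15 G418 reads, a ratio of RRTS of 4.90 with an exact 95% interval of 1.39 to 26.4 for counting error alone. PAN2, a deadenylase subunit, held 3 and 8 reads and a ratio of 1.96 with an interval of 0.471 to 11.5. TFAP4, a transcription factor, held no untreated read where CDS density would place 33.6, and 6 and 4 reads with G418. Its pooled RRTS with G418 was 2.72-fold the limit that 3 reads over both untreated libraries set. This value leaves out counting error in the G418 reads. FUZ held 1 read in untreated replicate A and 1 in G418 replicate B, and DUS2 and MAPK8 held none in any library, where pooled G418 densities would place only 3.37, 2.78 and 9.60 reads.

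The 18 genes listed as known natural readthrough genes had 12 transcripts in the data, of which 5 are UGAC transcripts under the rule. Beside LDHB and MDH1 these are EDEM3, ACP2 and AQP4. EDEM3, a mannosidase-like protein of the endoplasmic reticulum, has CUU at +4 to +6 and had RRTS of 0.171 and 0.242 untreated and 0.915 and 1.18 with G418, from 2, 1, 11 and 12 reads, a ratio of 5.48 with an interval of 1.66 to 28.5. ACP2, lysosomal acid phosphatase, held no untreated read and 4 and 3 reads with G418, for RRTS of 0.583 and 0.548. Its pooled RRTS with G418 was 1.88-fold the limit of 3 reads in untreated cells, again without counting error in the G418 reads. AQP4, the water channel of astrocytes, carries CUA but was listed in 1 library of each condition, where its region held no read and fewer than 1 was expected. CDS of another transcript is annotated over 30 nt of the ACP2 region and 84 nt of the AQP4 region, as it is for LDHB and MDH1.

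**Figure D4:**
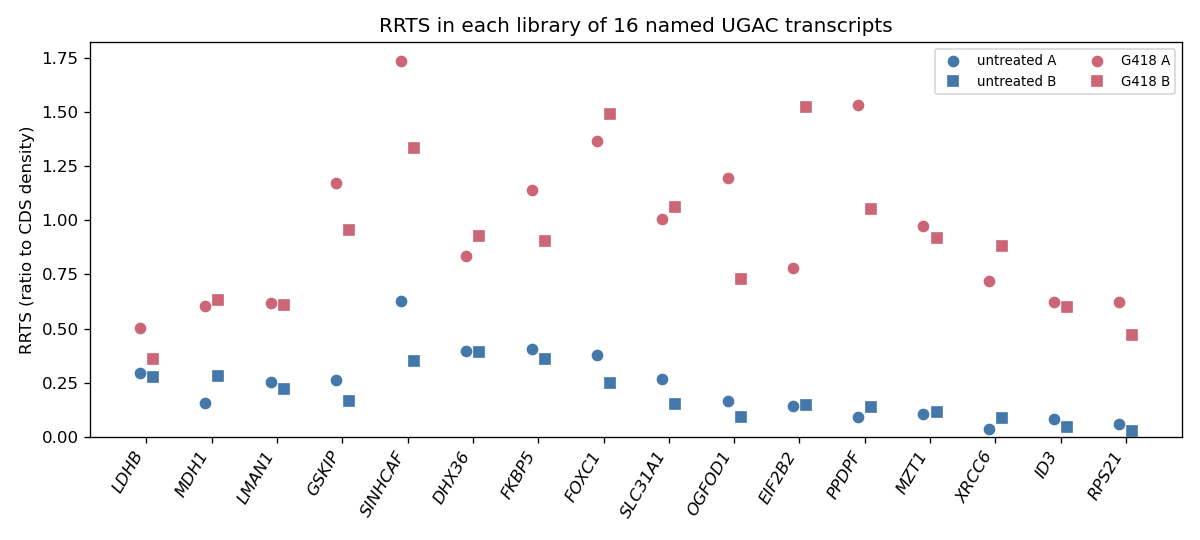
RRTS (y axis, ratio to CDS density, from 0) of 16 of the named UGAC transcripts (x axis) in each library, with circles for replicate A and squares for replicate B, blue for untreated and red for G418. In LDHB the highest untreated and lowest G418 values are 0.294 and 0.362, while in XRCC6 they are 0.0868 and 0.722.

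The following genes were chosen by their RRTS, so their levels are a description. The 8 highest untreated values among the 35 transcripts with at least 10 untreated reads were those of TAF1D, TP53RK, IRF2BP2, SINHCAF, DHX36, FKBP5, FOXC1 and LDHB. TAF1D, a subunit of the RNA polymerase I factor SL1, had RRTS of 3.85 and 3.62 in untreated cells and 2.88 and 2.48 with G418, from 20, 6, 14 and 11 reads on a region that ends 24 nt after the NTC. TP53RK, a kinase of the KEOPS complex, held 25, 9, 14 and 9 reads, for a pooled RRTS of 1.14 untreated and 0.738 with G418. In both genes the untreated values lay above the G418 values, with fitted log2 fold changes of -0.49 ± 0.45 and -0.61 ± 0.43 that did not pass (edgeR adjusted p = 0.295 and 0.165). Both genes have 2 annotated stop codons among their protein-coding transcripts, and in TP53RK another annotated CDS covers 63 nt before the 3′TC.
IRF2BP2, a transcriptional corepressor, had RRTS of 0.915 and 0.277 untreated and 1.97 and 2.00 with G418, from 13, 2, 28 and 28 reads. SINHCAF, a subunit of the SIN3 deacetylase complex, had 0.625 and 0.352 untreated and 1.74 and 1.34 with G418. DHX36, a helicase that unwinds G-quadruplexes, had 0.396 and 0.393 untreated and 0.837 and 0.928 with G418, and FKBP5, a co-chaperone of steroid receptors, had 0.404 and 0.361 untreated and 1.14 and 0.905 with G418. In these 4 genes each G418 library lay above each untreated library, and the fitted log2 fold changes ran from 1.14 ± 0.33 for DHX36 to 1.499 ± 0.42 for IRF2BP2. Of the 4, SINHCAF alone passed with DESeq2 as well, where the adjusted p was 0.0600 for IRF2BP2, 0.0778 for DHX36 and 0.0581 for FKBP5.

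Among the 144 UGAC transcripts whose CDS density would place at least 50 reads in pooled G418, RRTS with G418 ran from 0 to 1.55, with a median of 0.366 and quartiles of 0.226 and 0.562. Untreated RRTS of the same transcripts had a median of 0.0354 and quartiles of 0.0160 and 0.0964. The highest 8 with G418 were SINHCAF, FOXC1, PPDPF, EIF2B2, GSKIP, FKBP5, SLC31A1 and OGFOD1, the first 7 of which were above 1. FOXC1, a forkhead transcription factor, had RRTS of 0.378 and 0.249 untreated and 1.37 and 1.49 with G418. PPDPF, a pancreatic progenitor differentiation factor, had 0.0928 and 0.138 untreated and 1.53 and 1.05 with G418, from 9 untreated and 164 G418 reads. EIF2B2, a subunit of the exchange factor of eIF2, had 0.142 and 0.150 untreated and 0.780 and 1.52 with G418, so its G418 replicates lay far apart. SLC31A1, a copper transporter, had 0.268 and 0.151 untreated and 1.004 and 1.06 with G418, and OGFOD1, a hydroxylase of ribosomal protein uS12, had 0.165 and 0.0929 untreated and 1.19 and 0.727 with G418.

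At the low end were RUVBL1, an ATPase of chromatin remodelling complexes, RBM3, a cold-inducible RNA-binding protein, RPL28, of the large ribosomal subunit, UBE2A, a ubiquitin-conjugating enzyme, and SMIM4. RUVBL1, SMIM4, RBM3, RPL28 and UBE2A held no G418 read, where 241.7, 285.5, 959.9, 219.4 and 680.6 reads were expected, which allows an RRTS of up to 0.0124, 0.0105, 0.00313, 0.0137 and 0.00441 for counting error alone. MYL6, a myosin light chain, held 1 read in each G418 library where 1552 were expected in all, PPP1CC, a catalytic subunit of protein phosphatase 1, held 2 and 1, and TM2D3 held 0 and 1. All 8 genes have from 2 to 8 annotated stop codons in GENCODE version 44, and 55 of the 140 matched transcripts of this set are from genes with more than 1. Of the 8, RUVBL1 alone has another annotated CDS before its 3′TC, over 75 nt. Of the 144, 10 had an RRTS under 0.05 with G418, and all 9 of these that were matched are from genes with more than 1 annotated stop codon. Over all matched transcripts, aggregate RRTS with G418 was 0.474 and 0.447 for the 290 whose gene has 1 annotated stop codon and 0.284 and 0.267 for the 242 with more, and without it 0.0708 and 0.0709 against 0.0543 and 0.0478. The part of unused transcript isoforms in these low values was not tested.

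**Figure D5:**
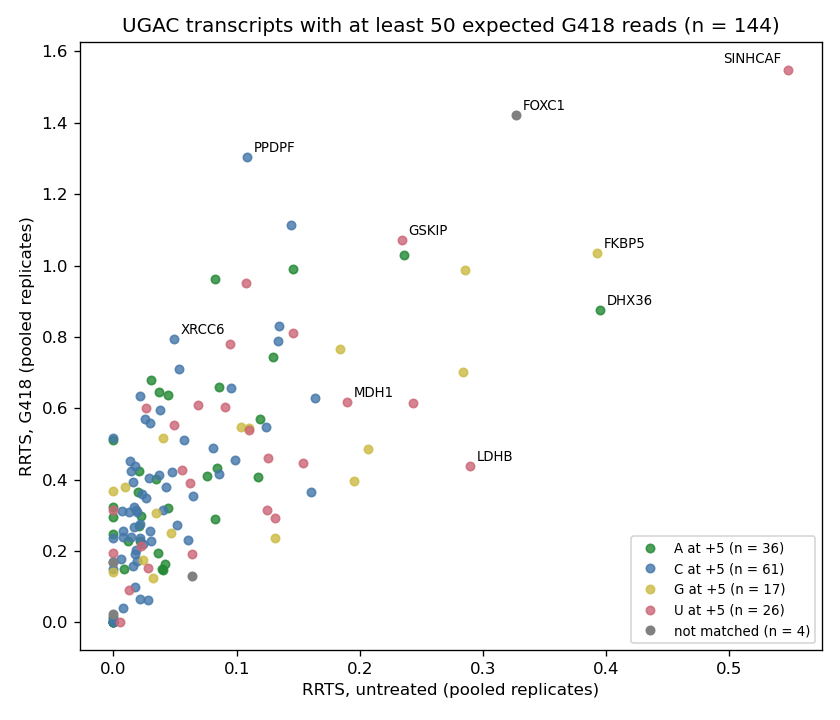
RRTS in pooled G418-treated cells (y axis) against RRTS in pooled untreated cells (x axis) for the 144 UGAC transcripts with at least 50 expected G418 reads, coloured by the nucleotide at +5, with 9 genes named. LDHB, at 0.289 untreated and 0.439 with G418, lies far to the right of XRCC6, at 0.0489 and 0.794.

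Replicates ranked these 144 transcripts alike with G418 (Spearman rho = 0.858) and less so without it (rho = 0.592), and untreated with G418 RRTS gave a rho of 0.688. Over all 547 transcripts, most of which rest on fewer reads, the same coefficients were 0.540, 0.406 and 0.395. These coefficients are across transcripts, which are not independent replicates, and both conditions of a transcript share its region, length and annotation. In the 144, the length to the 3′TC gave rho of -0.135 untreated and -0.188 with G418, CDS density -0.170 and -0.133, CDS length 0.0899 and 0.127, the whole 3′UTR length 0.220 and 0.176, and the GC share before the 3′TC -0.0119 and -0.0677 (140 transcripts). Over the 547, length gave 0.0162 and -0.139 and CDS density 0.112 and -0.0131, so both turned sign without drug.

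Transcript by transcript, G418 raised RRTS in most UGAC transcripts with enough reads. Of 281 with at least 10 reads over the 4 libraries, 220 were higher with G418 at an edgeR adjusted p under 0.05 (78.3%, against 82.6% of all 2827 transcripts tested), and 113 with DESeq2 (40.2%, against 48.5% of all). None was lower, against 0.0707% of all transcripts tested, and none was lower at an unadjusted p under 0.05 or with DESeq2, although leaving out untreated replicate B gave 1. The filter keeps transcripts with reads in either condition, so a transcript could pass through its G418 reads alone. The median fitted log2 fold change was 2.71, against 3.18 over all transcripts tested, and 275 of the 281 were above 0. Without untreated replicate A the count was 145 of 267 tested (54.3%, against 60.6% of all transcripts), and without G418 replicate A it was 131 of 170 (77.1%, against 82.0%).

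Among the 27 tested transcripts with over 3 reads in each untreated library, the 5 largest fitted rises were those of XRCC6, PPDPF, RPS21, ID3 and MZT1. XRCC6, the Ku70 subunit of the DNA end-binding complex, went from 16 and 15 reads to 281 and 277, and from RRTS of 0.0347 and 0.0868 to 0.722 and 0.883 (log2 fold change 3.99 ± 0.20, SE, edgeR adjusted p = 3.11e-81). PPDPF rose by 3.55 ± 0.36 (edgeR adjusted p = 4.95e-21). RPS21, a protein of the small ribosomal subunit, went from RRTS of 0.0594 and 0.0258 to 0.623 and 0.470 (3.49 ± 0.20, edgeR adjusted p = 2.86e-67).
ID3, an inhibitor of basic helix-loop-helix factors, went from 0.0808 and 0.0443 to 0.621 and 0.598 (3.16 ± 0.20, edgeR adjusted p = 5.03e-54). MZT1, a component of the gamma-tubulin complex, went from 0.105 and 0.114 to 0.975 and 0.918 (3.13 ± 0.27, edgeR adjusted p = 3.03e-29). These 5 rises passed under each alternative run. The 5 smallest values were those of TP53RK, TAF1D, LDHB, GPC3 and LRRC47. GPC3, a heparan sulfate proteoglycan of the cell surface, had RRTS of 0.222 and 0.456 untreated and 0.462 and 0.507 with G418 (log2 fold change 0.72 ± 0.64, edgeR adjusted p = 0.279), and LRRC47 had 0.201 and 0.183 untreated and 0.453 and 0.337 with G418 (1.01 ± 0.45, edgeR adjusted p = 0.0299, lost with DESeq2 at 0.213).

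RRTS was higher in short extensions when reads were summed. Untreated aggregate RRTS was 0.104 and 0.0991 for the 199 transcripts with at most 50 nt to the end of the 3′TC, 0.0718 and 0.0710 for those with over 50 and up to 100 nt, and 0.0445 and 0.0409 for the 153 with over 100 nt. With G418 the same groups had 0.553 and 0.471, 0.426 and 0.428, and 0.300 and 0.286. Between the longest and the shortest group the log2 ratio was -0.81 ± 0.28 (SE, negative binomial regression, adjusted p = 0.00603) untreated. With G418, where 181 long and 222 short regions had enough reads in that condition, it was -0.38 ± 0.11 (adjusted p = 0.00132). The untreated difference did not hold in a Mann-Whitney U test, in which the longer group had the higher RRTS in 50.97% of pairs (adjusted p = 0.749), and both conditions lost the call over genes with a single annotated stop codon (adjusted p = 0.0585 for both). Longer regions also more often held a read, as 24.8% of the longest group had none untreated against 45.7% of the shortest. The counted region ends with the 3′TC itself, where the paper found ribosomes enriched with G418. That codon makes up more of a short region, and its part in the length difference was not tested.
Summed RRTS also fell with CDS density, while the median transcript did not. With the transcripts split into 3 groups by mean CDS density, aggregate RRTS was 0.118 and 0.112 untreated in the lowest, 0.105 and 0.105 in the middle and 0.0535 and 0.0498 in the highest, and 0.497 and 0.461, 0.475 and 0.432, and 0.357 and 0.339 with G418. The medians over transcripts in the same order were 0, 0.0578 and 0.0394 untreated and 0.429, 0.461 and 0.421 with G418. Density groups were not tested. By the first 3′TC itself, untreated values were 0.0557 and 0.0459 for UAA (156 transcripts), 0.0883 and 0.0822 for UAG (125 transcripts) and 0.0561 and 0.0578 for UGA (251 transcripts). These last groups were not tested.

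Ribosome density was far lower beyond the first 3′TC than before it. Density after it was taken over the whole rest of the 3′UTR, with any later in-frame stop codons. Its share of the density before is therefore not a measure of passage through the first 3′TC alone. In the 526 transcripts with at least 30 nt after it, density after the 3′TC was 0.0631 and 0.0635 of the density before it in untreated cells, and 0.0434 and 0.0430 with G418 (p = 0.333 by the same exact permutation test). The median over transcripts with a read before the 3′TC ran the other way, at 0.00775 untreated and 0.0333 with G418. Such transcripts were taken in each library by itself, so the conditions cover different sets, and untreated reads per transcript are few. The part of this in the turn of direction was not tested. Relative to the CDS, density after the 3′TC was 0.00413 and 0.00405 untreated and 0.0167 and 0.0158 with G418. When the first 3′TC was UAA the share was 0.0482 and 0.0549 untreated and 0.0285 and 0.0274 with G418. For UAG it was 0.0703 and 0.0745, then 0.0445 and 0.0465, and for UGA 0.0635 and 0.0569, then 0.0499 and 0.0491. In G418-treated cells these shares rose in the order UAA, UAG, UGA in both replicates, and in untreated cells that of UAG was the highest.

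CDS counts of UGAC transcripts changed little with G418. Of 751 tested, 35 were higher (4.66%, against 5.31% of all 8494 transcripts tested) and 12 lower (1.60%, against 3.21%) at an edgeR adjusted p under 0.05, and DESeq2 called 7 and 6 (0.923% and 0.792%, against 1.26% and 1.51%). The largest rises past the threshold were in EPOP, a factor that binds Polycomb complex 2, from 14 and 6 counts to 37 and 30 (log2 fold change 1.36 ± 0.35, SE, edgeR adjusted p = 0.0105), in PRXL2C from 43 and 16 to 95 and 86 (1.24 ± 0.22, edgeR adjusted p = 0.000349) and in TTL, tubulin tyrosine ligase, from 44 and 23 to 96 and 92 (1.10 ± 0.22, edgeR adjusted p = 0.00113).
Falls were smaller. RPS21 went from 787 and 860 CPM (CDS counts scaled to library size) to 583 and 593 (log2 fold change -0.59 ± 0.08, edgeR adjusted p = 3.14e-05), ID3 from 172 and 218 to 139 and 148 (-0.53 ± 0.11, edgeR adjusted p = 0.00175) and CPPED1, a phosphatase, from 26.0 and 24.3 to 17.7 and 19.5 (-0.55 ± 0.17, edgeR adjusted p = 0.0359). The calls of EPOP, ID3 and CPPED1 were lost when either G418 replicate was left out (edgeR adjusted p of 0.107 to 0.153, 0.127 to 0.227 and 0.395 to 0.622), and that of TTL without G418 replicate B (edgeR adjusted p = 0.0819). Whether a change in CDS counts is in mRNA level or in translation per mRNA cannot be told apart in these libraries.

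By gene group, no list held more than 20 of the UGAC transcripts. The aggregate RRTS given for a list covers all its transcripts with enough mRNA reads, tested for a change or not. Solute carriers, the membrane transporters of small molecules, numbered 20, of which 8 were tested for RRTS and 7 rose, with an aggregate RRTS in pooled replicates of 0.118 untreated and 0.550 with G418. Of 7 translation factors 4 were tested and 4 rose (0.0531 untreated and 0.419 with G418, over 6 transcripts). Of 15 zinc finger genes 1 was tested and rose (0.0735 and 0.714 over 6 transcripts). The 3 mitochondrial ribosomal proteins were tested and rose (0.0333 and 0.419).
In the remaining lists the counts were smaller still. Among 3 respiratory chain genes 2 were tested and rose (0.0238 and 0.274), as did 2 of 3 chaperones (0.0129 and 0.169 over all 3). A single tested transcript rose in each of the lists of cytosolic ribosomal proteins (RPS21, 0.0411 and 0.432 over 2 transcripts), splicing and hnRNP proteins (0.0424 and 0.381) and the proteasome (0.0184 and 0.203). The same held for Rab GTPases (0.0338 and 0.305 over 4 transcripts) and mitochondrial import (0.0219 and 0.276). The 2 aminoacyl-tRNA synthetases were tested and neither passed, with 0.332 untreated and 0.926 with G418 from 11 and 33 reads. Histones and tubulins held no UGAC transcript. Over all UGAC transcripts 78.3% of those tested rose, and counts this small set no list apart from that share.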

How the data were processed

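Ribosome protected fragments of untreated and G418-treated HEK293T cells (2 libraries each) were deposited as 1 table per library. The authors collapsed reads by molecular identifier, trimmed them, removed noncoding RNA, aligned the rest to hg38 with STAR guided by GENCODE version 30, kept 1 transcript per gene, and assigned full-length reads of 28 to 35 nt by their A site. For genes with several coding transcripts they took one that ends at the stop codon lying furthest 3′, to keep 3′UTRs clear of the CDS of other isoforms. The submitters' processing notes also list CASAVA 1.8. The deposited tables give counts per region, the same regions in RPM and RPKM, and RRTS as a ratio, with 33 nt left out of the CDS and 6 nt after the NTC. A deposited 5′UTR density, treated as a score because some values were below 0, was not used. Multimapping reads kept 1 alignment, so transcripts with near-identical copies are uncertain.

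From the RPM values the authors deposited, whole reads before the 3′TC were recovered for 100% of values (within 0.001 of a whole read), and RRTS computed from them equalled the deposited ratio. Changes in RRTS were tested on these reads with edgeR 4.0.16 (quasi-likelihood, offset log(CDS reads + 0.5), at least 10 reads over 4 libraries), and CDS counts with edgeR (TMM, filterByExpr), both over all transcripts with Benjamini-Hochberg adjustment at 0.05. Contexts were compared across transcripts by negative binomial regression (MASS 7.3.60.0.1 in R 4.3.3) on pooled reads, with expected reads as offset, an F test, and adjustment over 6 tests for the 4 nt stop codons, 2 for length and 114 for positions and CUA. The difference in G418 response was tested by binomial regression with Williams weights, adjusted over 7 tests. It was added after the data were seen, and replaced a quasi-binomial version, also run on the data, that failed on simulated data. The edgeR and DESeq2 fits, the binomial regression and the negative binomial regression on a single feature, at a set dispersion, were tested on simulated data. The regression between 4 nt stop codons, the estimate of its dispersion and the quasi-Poisson fit were not. Intervals (exact, 95%) and limits (3 reads) cover counting error only. DESeq2 1.42.0 and the other alternatives are given at the end.

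Named were UGAC transcripts with CUA and enough reads, the 8 highest untreated, the 8 highest and 8 lowest with G418, the 5 largest and 5 smallest fitted RRTS changes, the 3 largest CDS changes each way, and genes on the list of known readthrough genes. The transcripts, lists and tests were chosen with earlier results of these data known.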

Additional observations from a re-analysis of the deposited data

Results flagged for a closer look

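The response of RRTS to G418 differed between groups of transcripts in 5 of 7 comparisons by the binomial regression, which was added after the data were seen. On the log2 scale, the ratio of G418-treated to untreated RRTS was 1.07 higher with C at +5 than with other bases. With U at +5 the difference was -1.16. UGAC transcripts differed from UGAA by -0.59, from UGAG by -0.83 and from UGAU by -0.82. The 5 differences kept their sign and passed over replicate A alone, over replicate B alone and over genes with 1 annotated stop codon. The smallest was that from UGAA over replicate B alone, at -0.35 (adjusted p = 0.0477).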

How the results depend on the processing

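UGAC lay above UGAA, UGAG and UGAU, and C and U at +5 kept direction and call in untreated cells, under every alternative run. The replicate letters mark no stated pairing, there are only 2 pairs, and same-letter deviations correlated at 0.0306 for RRTS and 0.153 for CDS counts. With the replicate block, 169 UGAC transcripts had higher RRTS (60.1%, against 65.5% of all tested), and 42 had higher and 36 lower CDS counts (5.59% and 4.79%, against 7.28% and 5.32%). DESeq2 gave 113 with higher RRTS (40.2%, against 48.5%) and 7 and 6 with higher and lower CDS counts (0.923% and 0.792%, against 1.26% and 1.51%). Leaving out 1 library gave 131 to 211 with higher RRTS, 0 to 1 with lower RRTS, 2 to 80 with higher CDS counts and 1 to 61 with lower. For higher RRTS these were 54.3% to 77.3% of the 170 to 273 transcripts tested, against 60.6% to 82.0% of all, and fewer transcripts reached the minimum of reads. For CDS counts they were 0.265% to 10.6% higher, against 0.668% to 11.6% of all, and 0.132% to 8.07% lower, against 0.176% to 12.8%. The cause of the other shifts was not tested.

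For long against short extensions, the Mann-Whitney U test gave 50.97% of untreated pairs, and genes with 1 annotated stop codon gave -0.56 untreated and -0.27 with G418. A at +5 turned sign with quasi-Poisson (-0.57 untreated, -0.44 with G418), with covariates (-0.027) and in genes with 1 annotated stop codon (-0.26), and ran from -0.21 to 0.32 untreated with 1 replicate left out. G at +5 turned with quasi-Poisson (0.57 and 0.19) and a minimum of mRNA reads 4 times as high (0.096 and 0.14), and ran from -0.088 to 0.15 untreated with 1 replicate left out. With G418, quasi-Poisson passed U at +5 (0.58), A at +5 (the -0.44 above) and G at +6 (-0.41), and it gave 8 untreated and 20 G418 nucleotides past the threshold. With G418 the Mann-Whitney U test passed 1, as did transcripts with no other annotated CDS before the 3′TC.

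Untreated aggregate RRTS was 0.0520 with that higher minimum, 0.0135 as the mean of the 2 libraries' medians over transcripts (0.0376 with reads pooled), 0.0573 without the transcript with most reads, 0.0838 at up to 100 nt, 0.00831 over the whole 3′UTR, 0.0708 in genes with 1 annotated stop codon and 0.0555 with no other annotated CDS. With G418 that mean of medians was 0.404 (0.432 pooled), up to 100 nt gave 0.460, the whole 3′UTR 0.0413 and genes with 1 annotated stop codon 0.460. Density after over before the 3′TC, untreated and with G418, was 0.0646 and 0.0424 at a minimum of 64 reads, 0.0619 and 0.0468 at the higher minimum, 0.00775 and 0.0333 as a median, which turns the direction between conditions, 0.0669 and 0.0438 without the top transcript, 0.0470 and 0.0304 in genes with 1 annotated stop codon, and 0.0553 and 0.0390 with no other annotated CDS. The annotation limits were chosen after seeing the data, and both leave out the known readthrough genes LDHB, MDH1 and ACP2. Untreated reads are few, which limits single transcripts in untreated cells most.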
